A study of Mus musculus with 2 samples.

Results

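Afp, Gpc3, Tff3, Cd24a and Golm1 are genes that the liver uses before birth or in tumours, and Zhx2, Zbtb20 and Zfhx3 encode transcription factors known as repressors of Afp after birth. These 8 genes, picked by name from a table of 23283 gene rows, were followed in livers with and without a hepatocyte Cre. The choice was made with their values in these libraries already known, so the differences between the libraries that follow are a description and carry no test. All 8 had the authors' status OK, and none was among the 17 rows of status HIDATA or the 1 row of status FAIL.

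The study sequenced RNA of perfused livers from 6-month-old male C57Bl/6 mice. The first group was Akt1F/F;Akt2-/-;Alb-Cre, which carried floxed Akt1, a null Akt2 and a Cre recombinase driven by the albumin promoter, a promoter active in hepatocytes; its library is called the Alb-Cre library. The second group, Akt1F/F;Akt2-/-, shared the floxed Akt1 and the null Akt2 but was not labelled with Cre; its library is called the control library. Both groups were therefore labelled as Akt2-null, and no group labelled with intact Akt2 was part of the comparison. RNA of 4 livers was pooled per group into 1 library, so no value has an error, no difference has a replicate check, and the spread between mice is unknown.

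Liver cells switch off a set of fetal genes in the weeks after birth. Alpha-fetoprotein, the product of Afp, is the main serum protein of the fetus and is replaced by albumin, and its persistence or return marks liver cancer and regeneration. In the mouse, Zhx2 was found as the locus that sets how much Afp remains in adult liver, Zbtb20 encodes a zinc-finger protein that binds the Afp promoter, and Zfhx3 encodes the large homeodomain protein once named for binding an AT-rich motif of the human AFP enhancer. Akt1 and Akt2 are kinases that carry the insulin signal in hepatocytes.

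The values are FPKM (fragments scaled by transcript length and library size) as the authors deposited them. Akt1, the floxed gene, was at 17.1 FPKM in the Alb-Cre library and 23.7 FPKM in the control library, and Akt2, null by label in both groups, was at 33.5 FPKM in the Alb-Cre library and 37.5 FPKM in the control library. Neither whole-gene value shows a loss of the transcript, and the exons that these alleles remove are not stated in the labels. The hepatocyte genes Hnf4a, at 174 FPKM in the Alb-Cre library and 208 FPKM in the control library, and Cebpa, at 153 FPKM in the Alb-Cre library and 273 FPKM in the control library, were abundant in both. Of 18 markers of mature hepatocytes, 12 had a usable value, and 6, Alb among them, had status HIDATA and were listed at 0, which is a failed estimate. A rough depth estimate put 1 FPKM at about 155 fragments per kb of transcript in the Alb-Cre library and about 138 in the control library. It was read within a window of low values set in advance, which bounds what it could return. Differences between libraries are log2 ratios with the Alb-Cre library on top, after adding 1 FPKM to both levels. A gene counts as measured with 1 FPKM or more in either library, and as called where this log2 ratio is at least 1 (higher) or at most -1 (lower). Of 11406 measured genes 3.75% were called higher and 1.83% called lower, and the median log2 ratio was -0.06. Of the 12 hepatocyte markers, 3 were called higher, Tat (log2 ratio 1.11), Gys2 (1.08) and G6pc (1.04), and 0 lower. Their median was -0.06, with 4 ratios above 0 and 8 below, Hnf4a (-0.25) and Cebpa (-0.83) among the latter.

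The stretch before the start of transcription is shown for Afp and Gpc3, the 2 called genes with an entry among the RefSeq promoters on GRCm38.p6, because the repressors named here are described as acting at such stretches. Both run 5′ to 3′ on the gene's own strand and end at the base before the start; capitals mark matches to the motifs named next. They lie at chr5:90490464-90490713 on the plus strand for Afp and at chrX:52613975-52614224 on the minus strand for Gpc3. The start is that of RefSeq. The deposited locus of Gpc3 extends further, to 52619047, so the Gpc3 stretch lies inside the gene model behind its FPKM.
Afp: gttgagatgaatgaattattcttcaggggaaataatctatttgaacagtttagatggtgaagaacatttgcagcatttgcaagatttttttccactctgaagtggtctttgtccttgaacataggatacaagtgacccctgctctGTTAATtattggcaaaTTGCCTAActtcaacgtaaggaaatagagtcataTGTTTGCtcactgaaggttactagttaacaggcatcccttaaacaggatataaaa
Gpc3: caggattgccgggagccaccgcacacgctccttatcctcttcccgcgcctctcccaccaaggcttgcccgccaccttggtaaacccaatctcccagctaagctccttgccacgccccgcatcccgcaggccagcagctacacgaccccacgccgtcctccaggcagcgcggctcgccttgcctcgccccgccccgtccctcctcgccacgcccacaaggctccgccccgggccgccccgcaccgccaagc
The letters searched, on both strands, were GTTAAT, the core of the HNF1 motif, TGTTTGC for FoxA, TTGCNNAA for C/EBP, GTAAACA for FoxO, CAAGGTCA for NR5A2, TTCNNNGAA for STAT and the full palindrome of HNF1. The Afp stretch held GTTAAT from 105 bases before the start, TTGCNNAA from 89 bases before it and TGTTTGC from 55 bases before it, all on the gene's own strand and with no overlap. Of 32851 promoters of that length, 6.43% held GTTAAT, 9.56% held TTGCNNAA and 4.30% held TGTTTGC. None of the searched motifs was found in the Gpc3 stretch, nor in those of Golm1, Zbtb20 and Zfhx3. The base composition of the pair also differed: G and C made up 36.0% of the Afp stretch and 71.6% of the Gpc3 stretch, against a median of 52.4% over all promoters, and the Afp stretch held 1 CG pair where the Gpc3 stretch held 25. A match is a run of letters and no evidence that a factor was bound.

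The fetal and tumour genes were split. Tff3, Gpc3 and Afp were called higher in the Alb-Cre library, and Cd24a and Golm1 lay between the 2-fold limits. Those 3 of 5 genes stand beside 3.75% of all measured genes, in a set chosen with these values known. Gpc3, Afp and Golm1 were under 1 FPKM in the control library and counted as measured through the Alb-Cre library alone, so these 3 could not have been called lower.

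Tff3 encodes trefoil factor 3, a small secreted peptide best known from goblet cells of the gut. The deposited locus is chr17:31125306-31129611 on mm10, and GENCODE gives it 1 transcript, of 493 bases. Its level was 1114 FPKM in the Alb-Cre library and 12.5 FPKM in the control library, a log2 ratio of 6.37, or 89.2-fold with nothing added. Among the 14868 genes of status OK it ranked 65th from the top in the Alb-Cre library and 4712th in the control library, and its log2 ratio ranked 11th of all measured genes. So Tff3 was among the most abundant mRNAs of the Alb-Cre library and a moderately expressed gene in the control library. Its share of the summed FPKM of those genes was 0.197% in the Alb-Cre library and 0.00203% in the control library.

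The other trefoil genes were not called. Tff1, a trefoil peptide gene of the stomach, had 3.93 FPKM in the Alb-Cre library and 5.33 FPKM in the control library, a log2 ratio of -0.36. Tff2 had 0.192 FPKM in the Alb-Cre library and 0.0717 FPKM in the control library, under the minimum in both. Markers of goblet and intestinal epithelial cells, where Tff3 is usually found, were under 1 FPKM. Of 8 such genes 7 were in the table, 0 reached 1 FPKM, and the 2 with status OK summed to 0.355 FPKM in the Alb-Cre library and 0.0963 FPKM in the control library. Agr2 and Cdx2 of that list were listed at 0 in both libraries.

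Gpc3 encodes glypican 3, a heparan sulfate proteoglycan anchored at the cell surface, abundant in fetal liver and used as a marker of hepatocellular carcinoma. Its deposited locus is chrX:52272427-52619047. Its level was 45.9 FPKM in the Alb-Cre library and 0.453 FPKM in the control library, a log2 ratio of 5.01, or 101-fold with nothing added. It ranked 1729th of the 14868 genes in the Alb-Cre library and 11905th in the control library. By the rough depth estimate the control level stands for about 62.5 fragments per kb of transcript, which would be low but not at the limit of counting. The added 1 FPKM lowers this ratio more than that of Tff3: with nothing added the log2 ratios were 6.66 for Gpc3 and 6.48 for Tff3.

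The rest of the glypican family gave smaller ratios. Gpc4, which lies next to Gpc3 on the X chromosome, had 24.5 FPKM in the Alb-Cre library and 30.2 FPKM in the control library (log2 ratio -0.29). Gpc1 had 5.73 FPKM in the Alb-Cre library and 4.43 FPKM in the control library (0.31), while Gpc2, Gpc5 and Gpc6 stayed under 1 FPKM in both. In the Alb-Cre library Gpc3 was thus the most abundant glypican, and in the control library Gpc4 was. Of 18 genes of hedgehog, Wnt and FGF signalling described beside glypican 3, 12 were measured, with a median log2 ratio of -0.23. Of these, 1 was called higher and 0 lower, beside 3.75% and 1.83% of all measured genes. The called gene was Sulf2, a sulfatase that trims heparan sulfate chains, with 10.9 FPKM in the Alb-Cre library and 4.35 FPKM in the control library (1.16).

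Afp gave a smaller difference from a low level. Its deposited locus is chr5:90490714-90508907. Its level was 4.70 FPKM in the Alb-Cre library and 0.879 FPKM in the control library, a log2 ratio of 1.60, or 5.35-fold with nothing added. Even in the Alb-Cre library Afp ranked 7568th of 14868 genes, near the middle, and it stood at 10948th in the control library. Its log2 ratio ranked 187th of the measured genes. The call depends on the added constant: with 5 FPKM added the log2 ratio was 0.72. Next to Afp in the albumin gene family, Afm, which encodes afamin, had 119 FPKM in the Alb-Cre library and 194 FPKM in the control library (-0.71); Alb and Gc had status HIDATA and gave no value.

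Cd24a and Golm1 were not called and were under 2 FPKM in both libraries. Cd24a encodes a small glycosylated surface protein found on B cells, neutrophils and bile duct cells and on liver tumour cells. It had 1.87 FPKM in the Alb-Cre library and 1.54 FPKM in the control library, a log2 ratio of 0.17, and 75.5% of measured genes had a lower ratio. Golm1 encodes a Golgi membrane protein known as GP73, a serum marker of liver disease. Golm1 had 1.49 FPKM in the Alb-Cre library and 0.751 FPKM in the control library, a log2 ratio of 0.51, or 1.98-fold with nothing added, under the limit on either scale; 89.3% of measured genes had a lower ratio. Its paralogue Casc4 had 3.64 FPKM in the Alb-Cre library and 2.35 FPKM in the control library (0.47). Siglecg and Selp, genes of CD24 receptors, were under 1 FPKM in both libraries.

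**Figure D1:**
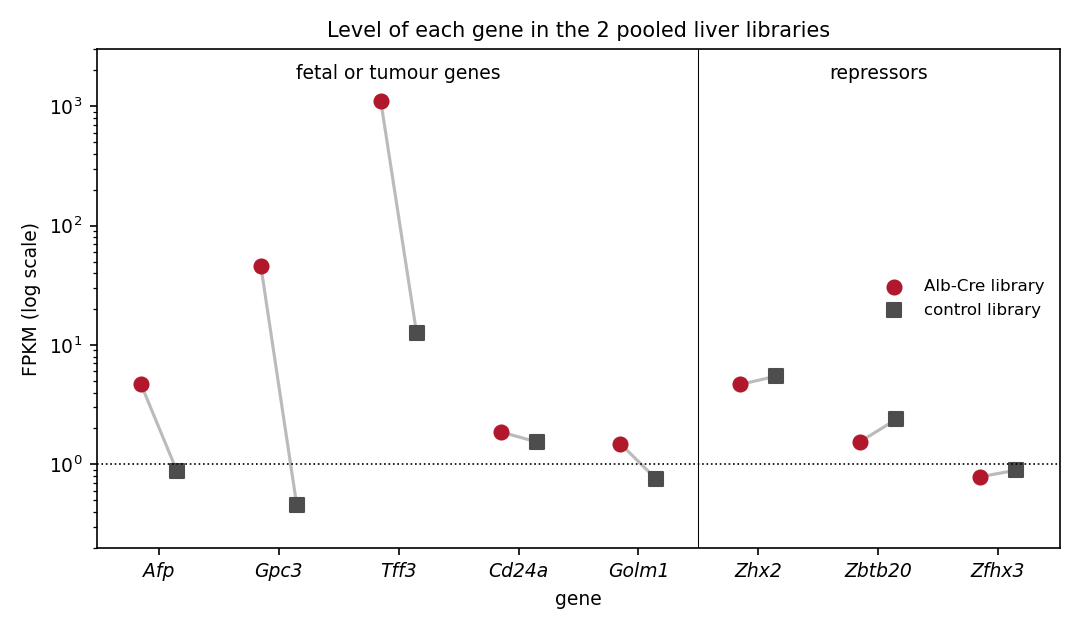
FPKM (log axis) of each of the 8 genes in the Alb-Cre library (circles) and the control library (squares), 1 pooled library of 4 livers per group; the dotted line is 1 FPKM and grey lines join the libraries. Tff3 reaches 1114 FPKM in the Alb-Cre library and Gpc3 45.9 FPKM, while the repressors stay between 0.786 and 5.49 FPKM in either library.

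The 3 repressor genes had low FPKM in both libraries and none was called. The values of 2 of them, Zbtb20 and Zfhx3, come from shortened gene models, described below. Zhx2 encodes a protein with zinc fingers and homeodomains. It had 4.67 FPKM in the Alb-Cre library and 5.49 FPKM in the control library, a log2 ratio of -0.19. Zbtb20 had 1.55 FPKM in the Alb-Cre library and 2.38 FPKM in the control library, a log2 ratio of -0.40, and 11.6% of measured genes had a lower ratio. Zfhx3 had 0.786 FPKM in the Alb-Cre library and 0.894 FPKM in the control library, under the minimum in both, with a log2 ratio of -0.08. All 3 ratios were below 0, as were those of 58.8% of measured genes, and that of Zfhx3 turned to 0.050 when ratios were centred on 4964 abundant genes, those at 10 FPKM or above in each library, whose median was -0.13. The ratio of Zhx2 lay within the interquartile range of measured genes, from -0.24 to 0.16, and that of Zbtb20 lay below it.

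The summed level of Zhx2, Zbtb20 and Zfhx3 was 7.01 FPKM in the Alb-Cre library and 8.76 FPKM in the control library. That of the 5 fetal and tumour genes was 1168 FPKM in the Alb-Cre library and 16.1 FPKM in the control library, and without Tff3 it was 54.0 FPKM in the Alb-Cre library and 3.63 FPKM in the control library. In the Alb-Cre library the levels ran from Tff3 through Gpc3, Afp, Zhx2, Cd24a, Zbtb20 and Golm1 to Zfhx3. In the control library they ran from Tff3 through Zhx2, Zbtb20, Cd24a, Zfhx3, Afp and Golm1 to Gpc3. Gpc3 was well above Zhx2 in the Alb-Cre library and Afp was level with it, while every fetal or tumour gene but Tff3 was below Zhx2 in the control library. With 1 library per group it cannot be said which neighbours in these orders differ beyond the spread between mice.

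The values of Zbtb20 and Zfhx3 rest on shortened gene models. Their levels, the summed level of the repressors and their places in the orders above hold for those models only. How the levels would change with whole-gene models was not tested. The deposited locus of Zbtb20, chr16:43247284-43619123, covers 48.5% of the GENCODE gene, which extends further at both ends and holds coding transcripts of up to 26901 bases. The deposited locus of Zfhx3, chr8:108714644-108961636, covers 24.2% of the GENCODE gene. Those of the other 6 genes cover 85.2% (Cd24a) or more. A microRNA inside Zfhx3, Mir3108, had 13.2 FPKM in the Alb-Cre library and was listed at 0 in the control library; such short features give unstable FPKM.

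Relatives of the repressors gave no call either. Of 8 genes of the ZHX, ZFHX and ZBTB groups, the 3 repressors among them, 7 were measured, 0 were called, and the median log2 ratio was -0.13, with a sign that turned to 0.0052 with centred ratios. Zhx1 had 9.75 FPKM in the Alb-Cre library and 11.5 FPKM in the control library (log2 ratio -0.22). Zhx3 had 8.79 FPKM in the Alb-Cre library and 9.37 FPKM in the control library (-0.08). Both were more abundant than Zhx2. Of 8 other factors described as lowering Afp, 7 were measured, 0 were called and the median was -0.26. Trp53, the p53 gene, had 14.5 FPKM in the Alb-Cre library and 11.3 FPKM in the control library (0.33), the highest ratio of that list. These counts of 0 stand beside 3.75% of all measured genes called higher and 1.83% called lower.

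**Figure D2:**
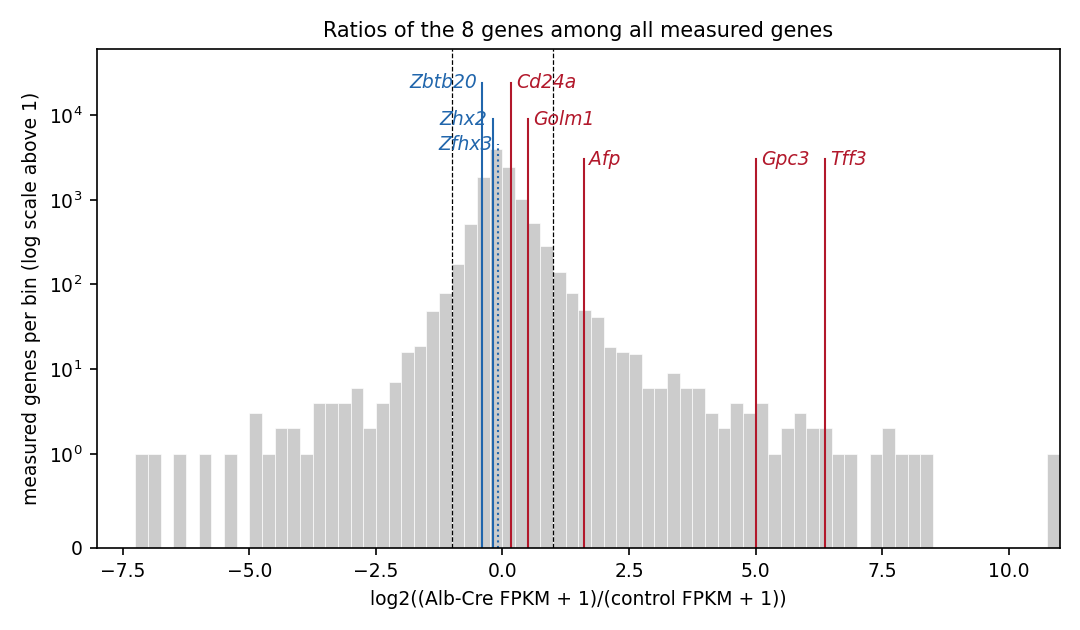
Number of measured genes (bars, log axis above 1) per 0.25 of log2 ratio (Alb-Cre library on top, 1 FPKM added), for 11406 genes, with the 8 genes as lines (red, fetal or tumour genes; blue, repressors; dotted, Zfhx3, which was not measured) and 2-fold limits dashed. Tff3 and Gpc3 lie in the far right tail, Afp just past the limit, and the others in the bulk of genes.

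Among transcription factors described as activators of Afp, Onecut1 was called lower in the Alb-Cre library and the others lay between the 2-fold limits. Of 12 such factors all were measured, and 0 were called higher and 1 lower, beside 3.75% and 1.83% of all measured genes. Their median log2 ratio was -0.38 beside -0.06 over all measured genes. Below 0 were 11 of 12 ratios (10 of 12 with centred ratios or equal library sums), beside 58.8% of measured genes. Onecut1, which encodes HNF6, had 7.21 FPKM in the Alb-Cre library and 21.5 FPKM in the control library (-1.45). Nr5a2, the receptor whose motif was searched above, had 14.9 FPKM in the Alb-Cre library and 15.4 FPKM in the control library (-0.04). Foxa2 had 10.9 FPKM in the Alb-Cre library and 20.8 FPKM in the control library (-0.87). Cebpb alone was above 0, at 80.4 FPKM in the Alb-Cre library and 75.3 FPKM in the control library (0.09).

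Genes described in mouse liver as repressed by Zhx2 or Zbtb20 were all called higher: 5 of 5, beside 3.75% of all measured genes. Afp and Gpc3 were among them, and their median log2 ratio as a list was 5.01. The list was drawn up with some of these ratios known and 3 of its members counted as measured through the Alb-Cre library alone, so its count supports nothing. H19, an imprinted RNA of fetal liver, had 206 FPKM in the Alb-Cre library and 0.0549 FPKM in the control library (7.62). Lpl, lipoprotein lipase, had 60.2 FPKM in the Alb-Cre library and 3.81 FPKM in the control library (3.67). Cyp2a4, a cytochrome P450 that is higher in female mice, had 307 FPKM in the Alb-Cre library and 7.38 FPKM in the control library (5.20), and near-identical copies could share its reads.

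Other genes of fetal liver or liver tumours mostly had ratios above 0, in a list chosen with earlier results known. Of 27 listed, 16 were measured, and 8 were called higher and 0 lower, beside 3.75% of all measured genes called higher. The median log2 ratio was 1.01 over the measured genes and 0.43 over the 22 with status OK. Above 0 were 15 of the 16 and 21 of the 22, beside 7236 of 14868 genes of status OK. Of the 16, 7 counted as measured through the Alb-Cre library alone. After H19 the largest ratios were those of Ly6d, a small surface antigen gene, with 20.2 FPKM in the Alb-Cre library and 0.880 FPKM in the control library (3.49), and Spink3, a trypsin inhibitor gene, with 12.9 FPKM in the Alb-Cre library and 0.317 FPKM in the control library (3.40). Akr1c18, a steroid dehydrogenase gene, had 7.84 FPKM in the Alb-Cre library and 0.0128 FPKM in the control library (3.13). Among genes picked after their values were seen, Igf2bp3, an RNA-binding protein of fetal tissue and tumours, had 3.30 FPKM in the Alb-Cre library and 0.105 FPKM in the control library (1.96). Igf2, the fetal growth factor next to H19, had 0.308 FPKM in the Alb-Cre library and 0.0967 FPKM in the control library. Lin28a was listed at 0 in both libraries, and Dlk1 and Sall4, other genes of fetal liver, were under 0.1 FPKM in both. So 8 of the 16 measured genes were called higher, while Igf2, Lin28a, Dlk1 and Sall4 stayed under 1 FPKM in both libraries.

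Markers of other cells that could carry these transcripts are given for comparison; in pooled bulk RNA, more cells of a type and more RNA per cell cannot be told apart. Of 15 bile duct and progenitor markers, 6 were measured, 2 were called higher, Krt23 (28.1 FPKM in the Alb-Cre library and 1.23 FPKM in the control library) and Cdh1 (25.5 FPKM in the Alb-Cre library and 11.2 FPKM in the control library), and 0 were called lower. The list summed to 95.1 FPKM in the Alb-Cre library and 53.2 FPKM in the control library, and 0 of its 13 genes with status OK were listed at 0. The others, named after their values were seen, went both ways. Krt19 had 0.830 FPKM in the Alb-Cre library and 0.515 FPKM in the control library, Prom1 had 1.39 FPKM in the Alb-Cre library and 0.277 FPKM in the control library, and Ggt1 had 0.297 FPKM in the Alb-Cre library and 0.0409 FPKM in the control library. Epcam had 0.577 FPKM in the Alb-Cre library and 0.802 FPKM in the control library, and Spp1 had 30.5 FPKM in the Alb-Cre library and 30.3 FPKM in the control library. B cell markers, 2 of 7 measured and 0 called, summed to 4.98 FPKM in the Alb-Cre library and 2.34 FPKM in the control library. Neutrophil markers, 3 of 9 measured, summed to 20.9 FPKM in the Alb-Cre library and 4.89 FPKM in the control library, with S100a8 and S100a9 called higher. Macrophage markers, 11 of 12 measured and 7 called higher, summed to 410 FPKM in the Alb-Cre library and 169 FPKM in the control library. All 11 of their ratios were above 0, with a median log2 ratio of 1.19. These counts of called markers stand beside 3.75% of all measured genes called higher. The part of these cells in the levels of Cd24a, Golm1 and Tff3 was not tested.

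Of 15 proliferation genes, which come with Afp in regenerating liver, 9 were measured and 0 were called. The median log2 ratio of those 9 was 0.30. The rest, Mki67 and Top2a among them, were under 1 FPKM in both libraries, so they could not be called. All 15 ratios were above 0, beside 7236 of 14868 genes of status OK. Mki67, a gene of cycling cells, had 0.562 FPKM in the Alb-Cre library and 0.177 FPKM in the control library. Top2a, a topoisomerase gene of dividing cells, had 0.729 FPKM in the Alb-Cre library and 0.225 FPKM in the control library. Pcna, the DNA polymerase clamp also used in repair, made up most of the list's level, with 35.6 FPKM in the Alb-Cre library and 34.9 FPKM in the control library. The count of 0 called stands beside 3.75% of all measured genes called higher and 1.83% called lower.

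**Figure D3:**
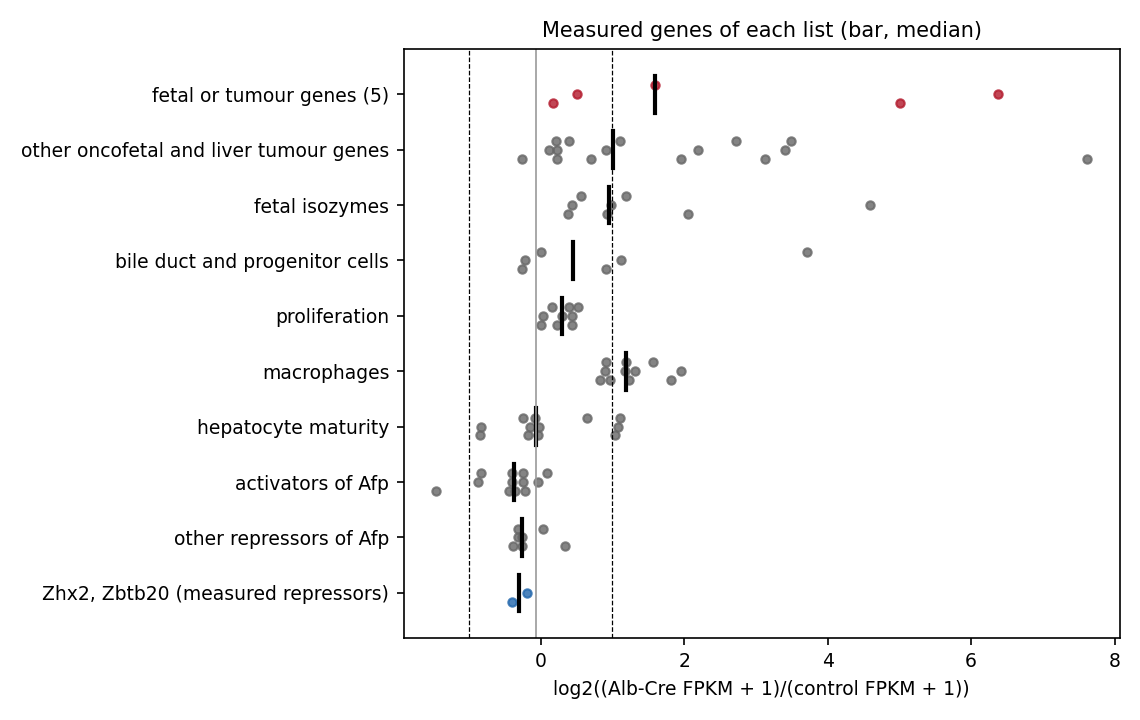
Log2 ratio (Alb-Cre library on top, 1 FPKM added) for every measured gene of 10 lists, with the median of each list as a black bar, 2-fold limits dashed and the median of all measured genes as a grey line. The fetal and tumour lists spread to the right, up to 7.62 for H19. Macrophage markers (median 1.19) and some bile duct markers (up to 3.71 for Krt23) also lie to the right. Activators of Afp and repressors lie near or left of the line.

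No measured gene flanking the 8 genes on the chromosome was called, with 1 FPKM added and no rescaling. Genes that were not measured were passed over. The 3 nearest measured genes on each side, 48 in all, were taken outside each deposited locus, so without Mir3108 (log2 ratio 3.82). They held 0 called genes, with log2 ratios from -0.94 to 0.98, beside 3.75% of all measured genes called higher and 1.83% lower. Gm19522 and Mir568, beside the shortened model of Zbtb20, overlap the longer GENCODE gene of Zbtb20. Around Afp the 6 neighbours lay between -0.71 and -0.01, and around Gpc3 between -0.38 and 0.07. The widest range was that around Tff3, from -0.94 to 0.98. Its upper end was Abcg1, 7.3 kb from Tff3, at 3.42 FPKM in the Alb-Cre library and 1.24 FPKM in the control library. The ratio of Abcg1 is just under the limit, and the neighbours were not recounted under other scalings.

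**Figure D4:**
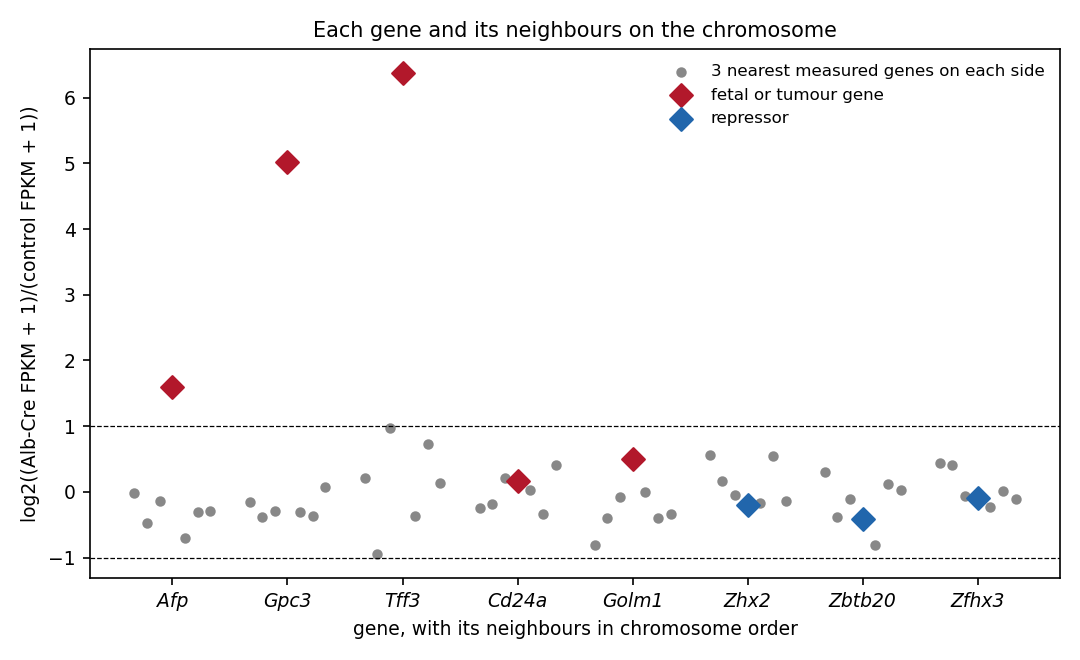
Log2 ratio (Alb-Cre library on top, 1 FPKM added) for each of the 8 genes (diamonds) and its 3 nearest measured genes on each side (grey points, in chromosome order), with 2-fold limits dashed. The 48 neighbours stay between -0.94 and 0.98, also beside Tff3 at 6.37 and Gpc3 at 5.01.

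Genes most like a called member were found by the distance between log2(FPKM + 1) values over the 2 libraries, a measure that rests on 2 points. Nearest to Afp were Dio3os (4.56 FPKM in the Alb-Cre library and 0.895 FPKM in the control library), Gal3st1 and Mtmr11, at distances of 0.037 to 0.080. Nearest to Gpc3 were Slpi (50.1 FPKM in the Alb-Cre library and 1.04 FPKM in the control library), Cyp2b13 and Mir27b, at 0.51 to 0.55. Tff3 was farther from its nearest genes: Mt2 (294 FPKM in the Alb-Cre library and 14.1 FPKM in the control library), Cyp2a4 and Igfbp1 came nearest at 1.93 to 2.06.

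In the authors' deposited table, Gpc3 and Tff3 were called different between the libraries, each with a q-value of 0.0109, the lowest in that table, which 68 genes shared. The authors' deposited table called 0.599% of rows of status OK higher in the Alb-Cre library and 0.074% of them lower. Afp was not called in the authors' deposited table, with a q-value of 0.333. The other 5 genes shared a q-value of 0.999 in the authors' deposited table. Those q-values compare 2 libraries, with no spread between mice in them.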

How the data were processed

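RNA of 2 pooled liver libraries was compared. FPKM per gene and library, with the authors' own p-value and q-value per gene, were deposited as 1 table of Cuffdiff's layout, per the file headers. FastQC, TopHat2 2.0.8, Cuffdiff 2.1.1 and mm10 are named in the submitters' processing notes, with no role or order; annotation, strandedness, read totals and library scaling are not given in the sources used here. Scaling by library makes very abundant genes lower the FPKM of all others. Columns of the table were tied to libraries by the sample names that the table and the labels share, and 0 value columns were left over.

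The 8 genes and all gene lists were chosen with earlier results of these data known. Ratios are log2 of Alb-Cre over control after adding 1 FPKM, which understates the change of weak genes, for rows of status OK with 1 FPKM or more in either library. No p-value was computed, since each group has 1 library. Named genes are the 8 members, up to 4 called genes with the largest ratios per list, paralogues, and the 3 genes nearest in level to a called member; others were named after their values were seen. Depth was read from 2330 genes with 1 coding transcript over 1000 bases as the median of FPKM times length less 200 bases, between 0.004 and 0.01 FPKM kb, where values of 1 fragment gathered (117 genes in the Alb-Cre library and 118 in the control library); it is approximate, puts the Alb-Cre library at 1.12 times the control depth, and covers counting error only. The calling step was run on simulated data with 4-fold changes in genes at 5 FPKM or more. That run does not cover changes near 2-fold, changes in weaker genes or the spread between mice. The depth step was run on simulated data whose 1-fragment value lay inside the window, which bounds what it could return. Promoters are the 250 bases before RefSeq starts. Deposited locus starts were counted from 1. Alternatives were other added constants, minimums, scalings, statuses and fold limits. Python 3.11.15, pandas 2.3.3, numpy 2.4.6 and matplotlib 3.10.9 were used.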

Additional observations from a re-analysis of the deposited data

How the results depend on the processing

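Of the log2 ratios of the 8 genes, all kept their direction and their side of the 2-fold limit under the 6 other constants, scalings and statuses tried, except that Afp fell under the limit with 5 FPKM added (0.72) and Zfhx3 turned to 0.050 with centred ratios. Admitting any status could change none of these ratios, because all 8 genes had status OK. The ratio of Tff3 ranged from 6.00 to 6.50 and that of Gpc3 from 3.22 to 6.66. The median of the 5 fetal and tumour genes was 0.72 with 5 FPKM added, and 1 of them, Tff3, was called higher where both libraries had to reach 1 FPKM, a minimum chosen after seeing the data. Over all genes, 769 were higher with 0.1 FPKM added, 178 with 5 FPKM added, 283 with a minimum of 5 FPKM, 251 with the minimum in both libraries, 1012 at 1.5-fold and 117 at 4-fold; 661 were lower at 1.5-fold and 45 at 4-fold. The median ratio of all genes turned to 0.043 with equal library sums and 0.071 with centred ratios. The share of called genes that were higher was 67.2%, and 78.0% with centred ratios, 75.4% with equal sums and 55.3% with 5 FPKM added. Activators of Afp called lower were 3 at 1.5-fold and 0 at 4-fold. Genes described as repressed by Zhx2 or Zbtb20 called higher were 2 with the minimum in both libraries. Other oncofetal genes called higher were 5 with 5 FPKM added and 2 with the minimum in both libraries, and their median was 0.57 with 5 FPKM added, 0.43 with no minimum, 0.99 with equal sums and 0.31 with the minimum in both. Lower numbers under a stricter minimum come from fewer genes. Medians that turned were those of the ZHX, ZFHX and ZBTB relatives (0.0052, centred), the albumin family (-0.71 with a minimum of 5 FPKM or in both libraries), erythroid markers (-1.46 with a minimum of 5 FPKM, -0.025 with the minimum in both, -0.041 as a mean) and hepatocyte markers (0.061 with equal sums, 0.075 centred, 0.12 as a mean); beyond the changes in gene number, the cause was not tested. No paired analysis was possible because each group is 1 library. The spread between mice is unknown, and low control levels rest on few fragments. By the rough depth estimate these were about 1.77 per kb of transcript for Akr1c18 and 7.57 for H19.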

Other observations

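A list of enzymes of fetal liver and tumours held mostly isozymes of adult liver forms, and also Asns, which is not one. The list was chosen with earlier results of these data known. Of 10 listed genes 8 were measured, and 3 were called higher and 0 lower, beside 3.75% and 1.83% of all measured genes. The median log2 ratio of the list was 0.95. Ldhb, the lactate dehydrogenase subunit of heart, had 80.8 FPKM in the Alb-Cre library and 2.39 FPKM in the control library (4.59). Pygb, the brain form of glycogen phosphorylase, had 7.62 FPKM in the Alb-Cre library and 1.07 FPKM in the control library (2.06), and Asns, asparagine synthetase, had 4.77 FPKM in the Alb-Cre library and 1.53 FPKM in the control library (1.19). Aldoa, the muscle aldolase gene, at 150 FPKM in the Alb-Cre library and 78.5 FPKM in the control library, lay under the 2-fold limit (0.93). With equal library sums or centred ratios 5 of the 8 were called higher, beside 525 and 563 of all genes, against 428 without rescaling.

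Of 9 stellate cell markers 7 were measured and 0 called, with a median log2 ratio of 0.50. Of 9 endothelial markers 8 were measured, with a median of 0.46 and 7 ratios above 0. Lyve1 was called higher at 4.11 FPKM in the Alb-Cre library and 1.11 FPKM in the control library, and Stab2 (-0.72) was below 0. Of 9 erythroid markers 4 were measured, with 2 ratios above 0, 2 below and a median of 0.20. Alas2, the haem synthesis enzyme of red cell precursors, was called lower at 41.8 FPKM in the Alb-Cre library and 117 FPKM in the control library. Hbb-b2 (0.89) and Epor (0.43) were above 0, and Klf1 (-0.03) was just below it. The calls in these cell lists stand beside 3.75% of all measured genes called higher and 1.83% called lower.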
